A study of Mus musculus with 6 samples.

Results

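The immediate-early genes Fos, Fosb, Jun, Junb, Egr1, Egr2, Ier2, Atf3, Dusp1 and Klf4 were followed in the cranial base of Memo1 mutant and control mouse embryos. The 10 genes were found by their symbols among 43481 gene entries with a value in every library, each under a single entry. Cranial base was dissected from C57BL/6J embryos at E15.5, the stage in days of gestation, and each of the 6 embryos gave 1 RNA-seq library. The mutants (n = 3) carried an allele of Memo1 induced by the mutagen ENU (N-ethyl-N-nitrosourea) and the controls (n = 3) are named only as controls. The labels do not say whether the mutant allele was homozygous, nor which Memo1 genotype the controls had. Values are in FPKM, that is fragments per transcript length and per library size, so that levels can be set side by side between genes.

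Immediate-early genes are transcribed within minutes of a signal from outside the cell, without new protein synthesis, and their mRNAs are short-lived. Growth factors, calcium, mechanical load, stress and the handling of tissue are all known to induce them. ERK and other MAP kinases activate the transcription factors SRF, ELK1 and CREB, which wait on these promoters at the serum response element, whose core is named the CArG box, and at the cyclic AMP response element (CRE). Fos, Fosb, Jun, Junb and Atf3 encode leucine zipper proteins that pair with each other and bind AP-1 or CRE sites. Egr1 and Egr2 encode zinc finger factors, Klf4 a Kruppel-like zinc finger factor, Ier2 a small nuclear protein, and Dusp1 a phosphatase that switches MAP kinases off. MEMO1 takes its name from cell motility driven by ERBB2, a receptor that signals through ERK among other routes. The question was whether immediate-early transcripts differed between mutant and control cranial base.

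The promoters of 5 of these genes are shown because they carry the elements through which the class is known to respond. Each is the 250 bases before the start of transcription in RefSeq, build GRCm38.p6, 5′ to 3′ on the strand of the gene. Capitals mark the CRE (TGACGTCA), its core (TGACG), the CArG box, the site TGACATCA and the TATA box (TATAAA), each sought on both strands. Fos lies at chr12:85473640-85473889, plus strand. Jun lies at chr4:95052223-95052472, minus strand. Egr2 lies at chr10:67537619-67537868, plus strand. Atf3 lies at chr1:191183334-191183583, minus strand. Dusp1 lies at chr17:26508473-26508722, minus strand.
Fos: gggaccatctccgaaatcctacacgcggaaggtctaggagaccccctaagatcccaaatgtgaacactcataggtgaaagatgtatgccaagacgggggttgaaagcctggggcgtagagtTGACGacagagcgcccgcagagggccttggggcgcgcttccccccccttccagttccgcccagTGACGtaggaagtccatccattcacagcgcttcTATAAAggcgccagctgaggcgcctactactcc
Jun: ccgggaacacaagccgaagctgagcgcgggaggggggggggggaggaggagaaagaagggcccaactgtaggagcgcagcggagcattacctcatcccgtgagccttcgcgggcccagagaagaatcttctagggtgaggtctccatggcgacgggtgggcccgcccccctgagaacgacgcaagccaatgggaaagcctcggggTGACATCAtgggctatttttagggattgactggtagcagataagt
Egr2: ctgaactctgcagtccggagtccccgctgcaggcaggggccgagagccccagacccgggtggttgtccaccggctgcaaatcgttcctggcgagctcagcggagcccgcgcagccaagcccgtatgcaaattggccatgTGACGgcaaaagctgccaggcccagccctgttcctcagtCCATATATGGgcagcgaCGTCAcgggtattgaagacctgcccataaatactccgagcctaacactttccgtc
Atf3: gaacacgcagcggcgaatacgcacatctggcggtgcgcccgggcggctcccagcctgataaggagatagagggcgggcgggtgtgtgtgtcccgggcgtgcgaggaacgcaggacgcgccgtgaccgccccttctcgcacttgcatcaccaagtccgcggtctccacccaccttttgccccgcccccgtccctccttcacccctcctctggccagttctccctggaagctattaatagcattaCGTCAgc
Dusp1: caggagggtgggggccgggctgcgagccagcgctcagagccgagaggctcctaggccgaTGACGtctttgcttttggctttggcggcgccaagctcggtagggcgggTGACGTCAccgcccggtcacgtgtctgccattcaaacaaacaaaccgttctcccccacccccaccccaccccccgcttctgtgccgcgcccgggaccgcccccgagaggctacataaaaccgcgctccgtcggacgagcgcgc

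Promoter windows were at hand for 8 of the 10 genes, all but Egr1 and Ier2. The CRE core was present in 7 of these 8, all but Jun, and in 17.8% of all 32851 windows of that length in the table. The full CRE, which contains the core on both strands, was found in Dusp1, which lay among the 1.55% of all windows with it. The CArG box was found in Egr2, at 72 to 63 bases before the start, and in 1.47% of all windows. Sequence beyond these 250 bases was not searched, so a gene without a match here may have the box further upstream. Jun had TGACATCA at 45 to 38 bases before the start, a sequence present in 2.93% of all windows, and Fos had the TATA box, present in 12.4%. The AP-1 sequence TGANTCA was found in 0 of the 8 and in 6.75% of all windows. The EGR sequence GCGNGGGCG was found in Fosb and Klf4 and in 4.7% of all windows. The GC box GGGCGG, which can overlap the EGR sequence, was found in 6 of the 8 and in 32.7% of all windows. These matches describe the letters of the windows and say nothing of what was bound there.

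**Figure D1:**
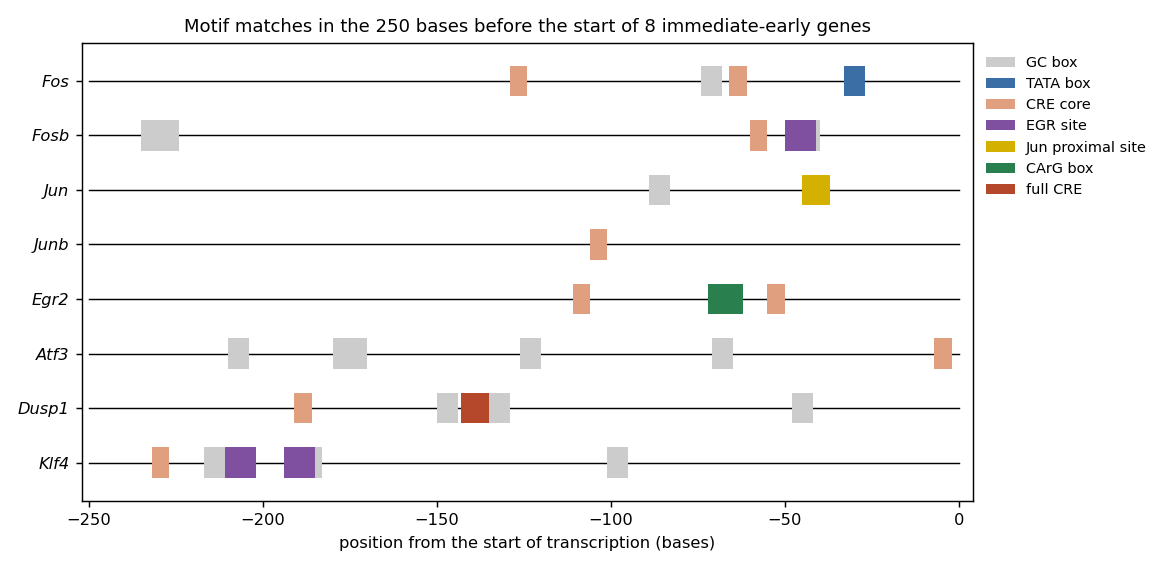
Matches to 7 sequence motifs in the 250 bases before the start of transcription of 8 immediate-early genes, with the position from the start in bases on the horizontal axis and 1 line per gene. The CRE core is present in 7 of the 8 genes, the full CRE in Dusp1 and the CArG box in Egr2.

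Library mutant 1 stood apart from the other 5, and this touches the genes at the low end. It listed 30811 entries at 0, against 19787 to 20594 entries in each of the other 5 libraries. Its log2 values correlated with theirs at r = 0.748 to 0.762 across entries, against 0.968 to 0.981 among the other 5. Steps between low FPKM values gave mutant 2 a depth of 117% and mutant 3 one of 152%, relative to control 1, while control 2 had 80.6% and control 3 had 92.3%. Mutant 1 had no usable steps. Memo1 itself was 22.6 ± 2.67 FPKM in mutants and 21.4 ± 2.04 FPKM in controls (SD, n = 3 each), which checks no label, since an ENU allele need not change the level of the mRNA.

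Of the 10 immediate-early genes, 4 were listed at 0 in mutant 1, namely Fos, Fosb, Egr2 and Atf3. Of the 9 of these genes that were tested, 3 were at 0 there, and of all 15710 entries tested 21.9% were. The share of entries at 0 in that library differed by their level in the others. Among entries above 0 in the other 5 libraries with a mean of 0.3 to 1 FPKM there, the range of Fosb, 85.1% of 2440 were listed at 0 in mutant 1. The share was 71.6% of 1686 entries at 1 to 2 FPKM, the range of Egr2, and 45.1% of 2930 at 2 to 5 FPKM, the range of Atf3. At 5 to 10 FPKM, the range of Fos and Junb, it was 22.3% of 2822 entries, and Fos was listed at 0 while Junb was not. At 10 to 20 FPKM it was 9.46% of 3225 entries, and at 20 to 50 FPKM 4.81% of 3099, and none of the 5 members in these ranges was at 0. For the 4 genes at 0, the values of single libraries are given and no group mean.

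**Figure D2:**
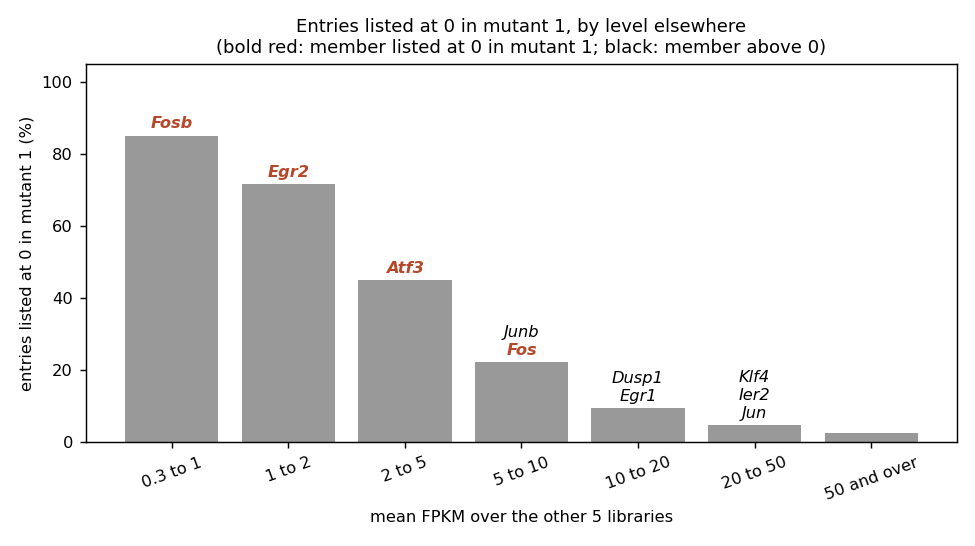
Share of entries listed at 0 in mutant 1 (vertical axis, percent), by their mean FPKM over the other 5 libraries (horizontal axis), for entries above 0 in all of those; names place the 10 immediate-early genes in their range. The share falls from 85.1% in the range of Fosb to 4.81% in the range of Jun, Ier2 and Klf4, and the 4 genes at 0 sit in the 4 lowest ranges.

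Jun, the founding JUN protein and a partner of FOS in AP-1, was higher in mutants 2 and 3 than in any control. Jun was 25.1, 32.2 and 30.6 FPKM in mutants 1, 2 and 3, against 20.9, 25.9 and 24.8 FPKM in controls 1, 2 and 3. Mutant 1 lay within the range of the controls. The difference did not pass (log2 change 0.28, SE 0.15, limma adjusted p = 0.695). Without mutant 1 it was larger and did not pass either (log2 change 0.39, SE 0.11, limma adjusted p = 0.170). The authors' deposited table gives Jun a signed fold of 1.23 with p = 0.115 and q = 0.523.

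Junb, a JUN protein that often acts against JUN in the control of growth, was lower than Jun in every library. Junb was 5.08, 6.78 and 6.02 FPKM in mutants 1, 2 and 3, against 5.93, 5.46 and 7.79 FPKM in controls 1, 2 and 3. The groups overlapped, with the lowest value in a mutant and the highest in a control (log2 change -0.08, SE 0.22, limma adjusted p = 0.857). Without mutant 1 the sign turned (log2 change 0.01, SE 0.16, limma adjusted p = 0.980).

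Fos, the founding FOS protein, needs a JUN partner to bind DNA. Fos was 0, 7.04 and 5.17 FPKM in mutants 1, 2 and 3, against 6.10, 6.77 and 8.10 FPKM in controls 1, 2 and 3. Mutant 2 lay within the range of the controls and mutant 3 below it. Without mutant 1 the log2 change was -0.18, SE 0.17 (limma adjusted p = 0.633). Fosb, its close relative, was the lowest of the 10 genes and was below the level of 1 FPKM asked for in the test. Fosb was 0, 0.271 and 0.577 FPKM in mutants 1, 2 and 3, against 0.705, 0.293 and 0.406 FPKM in controls 1, 2 and 3. The values of mutants 2 and 3 lay on either side of the median control.

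Atf3, a stress-induced partner of JUN proteins that mostly represses, was 0, 3.72 and 3.05 FPKM in mutants 1, 2 and 3, against 4.45, 3.53 and 3.46 FPKM in controls 1, 2 and 3. Mutant 2 lay among the controls and mutant 3 below them. Without mutant 1 the log2 change was -0.13, SE 0.15 (limma adjusted p = 0.695).

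The EGR genes gave log2 changes of opposite sign, neither past the threshold. Egr1, which is induced by serum, injury and load, was 14.7, 13.4 and 10.5 FPKM in mutants 1, 2 and 3, against 11.5, 10.2 and 10.2 FPKM in controls 1, 2 and 3. Mutants 1 and 2 lay above every control, and mutant 3 lay within the range of the controls (log2 change 0.24, SE 0.17, limma adjusted p = 0.695). Egr2, which is known for the hindbrain, for Schwann cells and for lymphocytes, was 0, 1.08 and 0.753 FPKM in mutants 1, 2 and 3, against 1.62, 1.25 and 1.92 FPKM in controls 1, 2 and 3. Mutants 2 and 3 lay below every control. It was the only one of the 10 genes in which every mutant lay on one side of every control, with mutant 1 listed at 0. Its difference did not pass with all 6 libraries (limma adjusted p = 0.695) or without mutant 1 (log2 change -0.44, SE 0.18, limma adjusted p = 0.293). The authors' deposited table gives Egr2 a signed fold of -2.62 with p = 0.0906 and no q.

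Ier2, a small nuclear protein made early after growth factor signals, was 18.9, 27.9 and 25.5 FPKM in mutants 1, 2 and 3, against 18.0, 19.9 and 21.3 FPKM in controls 1, 2 and 3. Its libraries fell as those of Jun did, with mutants 2 and 3 above every control and mutant 1 among the controls. The log2 change was 0.26, SE 0.18 with all 6 libraries (limma adjusted p = 0.695) and 0.42, SE 0.10 without mutant 1 (limma adjusted p = 0.133). With array weights, which let a library far from its group count less, Ier2 had the lowest limma adjusted p of the 9 tested genes, 0.0733.

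Dusp1, the phosphatase that inactivates MAP kinases and so limits the response, was 14.0, 13.0 and 10.4 FPKM in mutants 1, 2 and 3, against 11.1, 11.2 and 10.5 FPKM in controls 1, 2 and 3. The mutants held both the highest and the lowest value (log2 change 0.17, SE 0.16, limma adjusted p = 0.695). The controls lay close together, with 10.9 ± 0.383 FPKM, beside 12.5 ± 1.88 FPKM in mutants (SD, n = 3 each).

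Klf4, a factor of surface epithelia, vessels and pluripotent cells, was the highest of the 10 genes in the controls. Klf4 was 23.6, 39.3 and 35.4 FPKM in mutants 1, 2 and 3, against 32.8, 34.1 and 43.8 FPKM in controls 1, 2 and 3. Mutants 2 and 3 lay within the range of the controls and mutant 1 below it. The sign of the log2 change turned with mutant 1 left out, at -0.19, SE 0.23 with it (limma adjusted p = 0.717) and 0.03, SE 0.14 without it (limma adjusted p = 0.939).

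**Figure D3:**
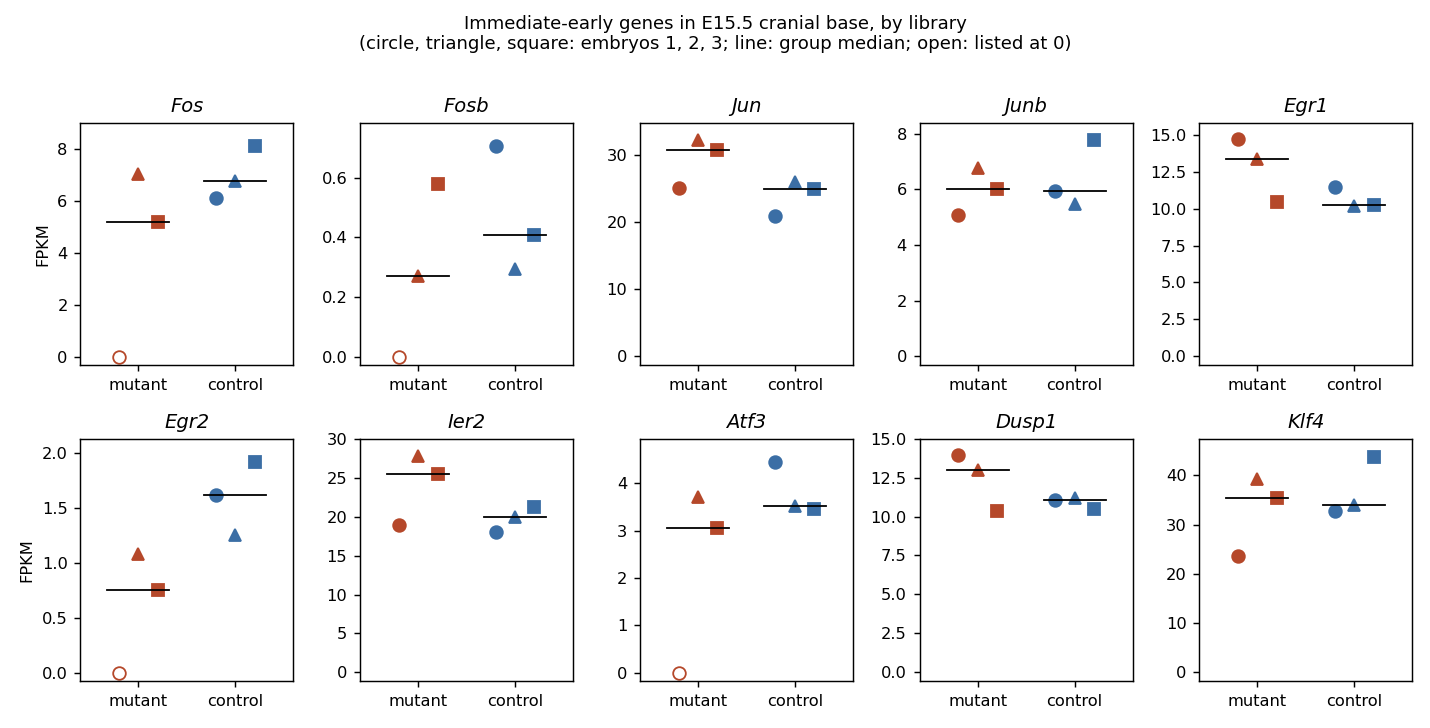
FPKM (vertical axis, from 0, 1 panel per gene) of the 10 immediate-early genes in the 3 mutant and 3 control libraries, with a line at each group's median and open symbols for values listed at 0. Mutants 2 and 3 lie above every control for Jun and Ier2 and below every control for Egr2, and mutant 1 is at 0 for Fos, Fosb, Egr2 and Atf3.

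Across the class no gene passed, and log2 changes lay on both sides of 0. Entries that averaged 1 FPKM or more across the 6 libraries entered the limma test on log2(FPKM + 1) with Benjamini-Hochberg adjustment over 15710 entries and a threshold of 0.05. This kept 9 of the 10 genes, all but Fosb. Limma called 0 of the 9 (adjusted p from 0.695 to 0.857), and 0 were at an unadjusted p under 0.05. The background was 0% of 15710 entries called and 5.12% at an unadjusted p under 0.05. Of the 9, 4 had a log2 change above 0 and 5 below, where 45.8% of all tested entries were above 0, with a median log2 change of -0.08 beside -0.05 over all tested entries. Of the 5 below 0, Fos, Egr2 and Atf3 were at 0 in mutant 1. Egr2 alone of the 9 had mutants and controls that did not overlap, where 20.9% of all tested entries did not overlap.

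Without mutant 1 the signs stood at 6 above and 3 below 0, where 47% of all tested entries were above, with a median log2 change of 0.03, beside -0.01 over all tested entries. At an unadjusted p under 0.05 were Ier2, Jun and Egr2, which is 3 of 9 where 17% of all tested entries were. The same 3 were those in which mutants 2 and 3 lay outside the range of the controls, as was the case in 36.3% of all tested entries. Limma called 0 of the 9 without mutant 1, where 0.0446% of all tested entries were called. With array weights it called 0 as well, where 2.04% of all tested entries were called. At an unadjusted p under 0.05 were then 3 of the 9, where 18.3% of all tested entries were, and the adjusted p was 0.0733 for Ier2, 0.109 for Jun and 0.218 for Egr2.

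**Figure D4:**
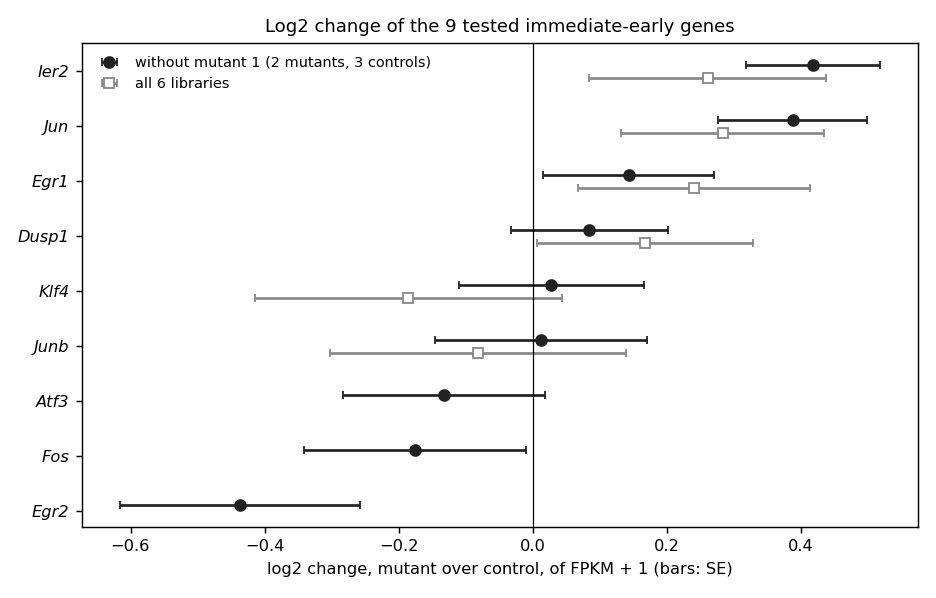
Log2 change of FPKM + 1, mutant over control (horizontal axis, with SE as bars), of the 9 tested immediate-early genes, with all 6 libraries (open squares) and without mutant 1 (filled circles). The squares are left out for Atf3, Fos and Egr2, which were listed at 0 in mutant 1. Ier2 and Jun lie highest and Egr2 lowest without mutant 1.

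The first word of the embryos' titles, whose meaning is not given, was shared by mutant 1 and control 1 and by mutant 3 and controls 2 and 3. Mutant 1 minus control 1 was 0.26 for Jun, 0.33 for Egr1, 0.31 for Dusp1 and -0.46 for Klf4, as differences of log2(FPKM + 1). Mutant 3 minus the mean of controls 2 and 3 was 0.26 for Jun, 0.03 for Egr1, -0.06 for Dusp1 and -0.12 for Klf4. For Ier2 these differences were 0.07 and 0.29, and for Egr2 between mutant 3 and controls 2 and 3 the difference was -0.55. Of the 6 genes above 0 FPKM in every library, Jun, Ier2 and Egr1 were thus higher in the mutant in both comparisons, Egr1 by 0.03 in the second. Junb and Klf4 were lower in the mutant in both.

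In the controls the levels ran from Klf4 at 36.9 ± 6.02 FPKM to Fosb at 0.468 ± 0.213 FPKM (SD, n = 3). By their median the order was Klf4, Jun, Ier2, Dusp1, Egr1, Fos, Junb, Atf3, Egr2 and Fosb. Jun and Ier2 overlapped in their ranges, as did Dusp1 and Egr1, and Fos and Junb, while all other neighbours in this order were apart. Among the entries above 0 of a library, Klf4 stood at the 86.5th to 90.4th percentile in the 5 libraries other than mutant 1. Jun stood at the 78.7th to 86.7th percentile there, Fos at the 53.5th to 61.0th and Fosb at the 20.2nd to 27.9th. The coefficient of variation among the 3 controls ran from 3.51% for Dusp1 to 20.8% for Egr2 in the 9 tested genes, with a median of 14.5%, beside 9.64% over all tested entries.

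The 6 genes above 0 in every library were compared by their profiles over the libraries. Likeness was measured as the root-mean-square difference between 2 genes' log2(FPKM + 1) over the 6 libraries, each centred on its own mean. Of 15 pairs the closest was Egr1 with Dusp1, at 0.0634, the factor and the phosphatase that were both highest in mutants 1 and 2. Jun with Ier2 followed at 0.077 and Junb with Klf4 at 0.138. The least alike were Egr1 and Klf4, at 0.414. Without mutant 1, a comparison added after the data were seen, the 3 closest pairs were these again, with Junb and Klf4 at 0.0495, Egr1 and Dusp1 at 0.0616 and Jun and Ier2 at 0.0619. The least alike were then Jun and Junb, at 0.251. Among 8431 genes that averaged 10 FPKM or more, the profile most like the Fos profile was that of Scp2, at 0.118, followed by 2810025M15Rik, Lrrfip1, Zrsr2 and Minos1. All 5 were lowest in mutant 1, and Scp2 was 3.42, 34.8 and 32.8 FPKM in mutants 1, 2 and 3, against 33.7, 34.6 and 38.2 FPKM in controls 1, 2 and 3. Over the 5 libraries without mutant 1, likewise added, the 5 closest were other genes, led by Aldh18a1 at 0.0132.

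JUN transcripts outweighed FOS transcripts by more in every mutant than in every control, a comparison that was chosen after the values were seen and is given without a test. Jund, the JUN protein with the steadiest expression in most cells, was 42.8, 39.3 and 34.4 FPKM in mutants 1, 2 and 3, against 26.0, 27.3 and 34.8 FPKM in controls 1, 2 and 3. Fosl2, a FOS relative active in bone and cartilage, was 8.84, 9.88 and 9.58 FPKM in mutants 1, 2 and 3, against 11.5, 11.6 and 12.1 FPKM in controls 1, 2 and 3. Every mutant thus lay below every control for Fosl2, an order that 11.9% of all tested entries had. The lowest mutant lay just within the controls for Jund. Neither passed (limma adjusted p = 0.695 for both). Jun, Junb and Jund summed to 73.0, 78.3 and 71.0 FPKM in mutants 1, 2 and 3, against 52.8, 58.7 and 67.5 FPKM in controls 1, 2 and 3. Fos, Fosb, Fosl1 and Fosl2 summed to 8.84, 17.6 and 15.7 FPKM in mutants 1, 2 and 3, against 19.0, 19.2 and 20.9 FPKM in controls 1, 2 and 3. The JUN sum was 8.26, 4.45 and 4.52 times the FOS sum in mutants 1, 2 and 3, against 2.78, 3.06 and 3.23 times in controls 1, 2 and 3. Scaling of a library does not change this ratio. How often such ratios of other genes separate the groups was not tested. In mutant 1 the FOS sum was Fosl2 alone, since the other members were listed at 0. The EGR sum of Egr1, Egr2, Egr3 and Egr4 overlapped, at 14.7, 15.7 and 12.3 FPKM in mutants 1, 2 and 3, against 15.2, 12.7 and 14.7 FPKM in controls 1, 2 and 3.

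Other genes of the same response gave log2 changes on both sides of 0, more of them above than below. Of 44 other immediate-early genes 38 were tested, and limma called 0 with all 6 libraries and 0 without mutant 1. Of the 38, 24 had a log2 change above 0, where 45.8% of all tested entries did, with a median of 0.16 beside -0.05. Without mutant 1, 29 were above 0, where 47% of all tested entries were, with a median of 0.14 beside -0.01. The 3 mutants lay above the 3 controls in 8 genes, where 8.98% of all tested entries had this order, and below them in 1, where 11.9% had it. With array weights 3 rose, where 0.719% of all tested entries were called higher. They were Cyr61, a matricellular protein, Rhob, a small GTPase of the endosome and the cytoskeleton, and Phlda1, a pleckstrin-like protein. Mutant 1 counts for little in the weighted p of these 3 genes. With all 6 libraries the limma adjusted p of each was 0.695. Without mutant 1 the limma adjusted p was 0.0699 for Cyr61, 0.117 for Rhob and 0.0818 for Phlda1. Cyr61 was 45.6 ± 1.22 FPKM in mutants and 31.8 ± 0.990 FPKM in controls (SD, n = 3 each; weighted limma adjusted p = 0.0223). Rhob was 79.7 ± 4.93 FPKM in mutants and 59.0 ± 3.46 FPKM in controls (SD, n = 3 each; weighted limma adjusted p = 0.0441). Phlda1 was 23.4 ± 4.34 FPKM in mutants and 15.4 ± 1.47 FPKM in controls (SD, n = 3 each; weighted limma adjusted p = 0.0381). Ier3, a survival factor, was 9.34 ± 0.914 FPKM in mutants and 6.79 ± 0.620 FPKM in controls (SD, n = 3 each; limma adjusted p = 0.695). Egr3 was 0, 1.20 and 1.08 FPKM in mutants 1, 2 and 3, against 2.09, 1.32 and 2.60 FPKM in controls 1, 2 and 3, and as for Egr2 mutants 2 and 3 lay below every control, with mutant 1 listed at 0.

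The genes that switch immediate-early transcription on gave no call. All 24 upstream kinases, transcription factors and corepressors were tested, 13 had a log2 change above 0 with a median of 0.02, and limma called 0 of them, also when array weights were used or mutant 1 was left out. The 3 mutants lay above the 3 controls in 3 of the 24, Elk1, Elk3 and Nab1, where 8.98% of all tested entries had this order. They lay below them in 3, Mapk3, Mapk14 and Rps6ka3, where 11.9% had that order. Mapk3, the kinase ERK1, was 59.8 ± 0.798 FPKM in mutants and 70.1 ± 4.44 FPKM in controls (SD, n = 3 each; limma adjusted p = 0.695). Mapk14, the stress kinase p38 alpha, was 27.8 ± 0.650 FPKM in mutants and 33.4 ± 3.30 FPKM in controls (SD, n = 3 each; limma adjusted p = 0.695). Srf was 34.3, 22.2 and 18.2 FPKM in mutants 1, 2 and 3, against 22.9, 20.4 and 24.2 FPKM in controls 1, 2 and 3, and the groups overlapped.

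The relatives of Dusp1 and Klf4 gave no call either, and none when array weights were used or mutant 1 was left out. Klf2, Klf6, Klf10, Dusp2 and Dusp5 stand in these lists and among the other immediate-early genes. Of the other DUSP phosphatases 10 of 11 were tested, with 4 log2 changes above 0 and a median of -0.07. Dusp8, a phosphatase of the stress kinases JNK and p38, was 11.5 ± 1.10 FPKM in mutants and 7.38 ± 0.896 FPKM in controls (SD, n = 3 each; weighted limma adjusted p = 0.0679). Dusp6, the phosphatase of ERK and an ERK feedback gene, was 22.5, 20.8 and 19.1 FPKM in mutants 1, 2 and 3, against 18.3, 19.8 and 18.5 FPKM in controls 1, 2 and 3. Of the other KLF factors 14 of 16 were tested. Their log2 changes were above 0 in 10, where 45.8% of all tested entries were, with a median of 0.18. The 3 mutants lay above the 3 controls in 4, Klf9, Klf11, Klf12 and Klf13, where 8.98% of all tested entries had this order. They lay below them in 0, where 11.9% had that order. Klf2, which responds to flow in endothelium, was 35.4, 18.8 and 17.6 FPKM in mutants 1, 2 and 3, against 15.8, 16.0 and 18.4 FPKM in controls 1, 2 and 3. Its highest value was in mutant 1, and the value of mutant 3 lay among the controls. Of the other AP-1, ATF and MAF genes 14 of 16 were tested, with 8 log2 changes above 0 and a median of 0.08, and 0 were called.

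Heat-shock chaperones, which stress of tissue also induces, gave no call with all 6 libraries or without mutant 1. Of 12 chaperones 11 were tested, and 2 had a log2 change above 0 with a median of -0.21, where 45.8% of all tested entries were above 0. Without mutant 1 there was 1 above 0 and the median was -0.10, where 47% of all tested entries were above 0. The summed level overlapped, at 4070 to 4461 FPKM in mutants and 4337 to 4610 FPKM in controls. The largest members of the sum were Hspa8, Hsp90aa1 and Hsp90ab1. The 3 mutants lay below the 3 controls in 3, Hspa1b, Hspa8 and Hspd1, where 11.9% of all tested entries had this order. They lay above them in 0, where 8.98% had that order. Mutants 2 and 3 lay below every control in 5 and above in 0, where 36.3% of all tested entries had either order. Hspd1 had the smallest unadjusted limma p of the 11 (log2 change -0.56, SE 0.23, limma adjusted p = 0.695). With array weights 1 fell, Hspe1, the mitochondrial co-chaperonin, where 1.32% of all tested entries were called lower. Hspe1 was 87.3, 49.4 and 58.1 FPKM in mutants 1, 2 and 3, against 81.2, 86.5 and 78.6 FPKM in controls 1, 2 and 3 (weighted limma adjusted p = 0.0330). Mutant 1, which counts for little in this p, lay above every control for Hspe1, and without mutant 1 the limma adjusted p was 0.0714. The inducible Hspa1b was 0, 1.48 and 1.16 FPKM in mutants 1, 2 and 3, against 1.50, 1.77 and 2.92 FPKM in controls 1, 2 and 3. Dnajb1, a partner of HSP70, was 32.3, 32.4 and 32.1 FPKM in mutants 1, 2 and 3, against 31.5, 34.4 and 34.2 FPKM in controls 1, 2 and 3.

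**Figure D5:**
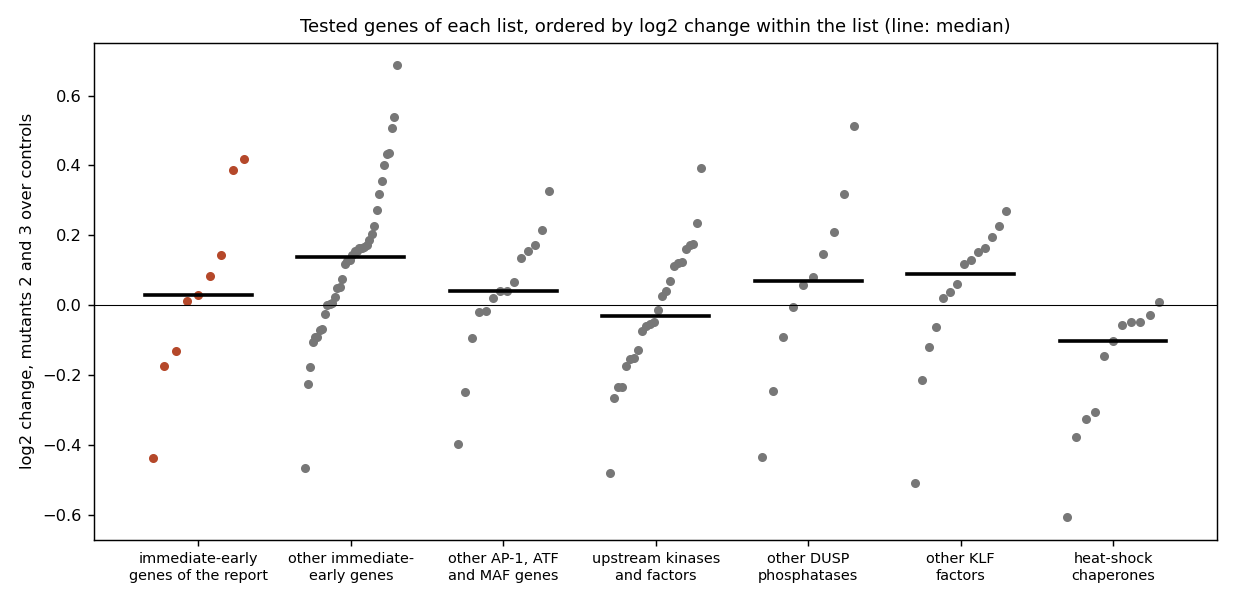
Log2 change of FPKM + 1, mutants 2 and 3 over the 3 controls (vertical axis), of every tested gene in 7 lists, ordered within each list, with a line at the median. The 9 tested immediate-early genes spread on both sides of 0 around a median of 0.03, the 38 other immediate-early genes have a median of 0.14 and the 11 chaperones one of -0.10.

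The summed levels of several cell type marker lists did not overlap between the groups. In bulk tissue fewer cells of a type and less RNA per cell cannot be told apart. The 9 epithelial markers summed to 381 to 421 FPKM in mutants and 694 to 705 FPKM in controls, with 2 of 9 log2 changes above 0 and no marker listed at 0 in mutant 1. Of these 9, limma called 0 with all 6 libraries and 2 without mutant 1, where 0.0446% of all tested entries were called, and with array weights it called 7 lower, where 1.32% were. Klf4, which surface epithelia are known to express, overlapped between the groups, and the part of epithelial cells in its level was not tested. The 8 chondrocyte markers summed to 4090 to 4637 FPKM in mutants and 2696 to 3686 FPKM in controls, with all 8 log2 changes above 0. None of these cartilage markers was at 0 in mutant 1, and array weights gave 2 called higher, where 0.719% of all tested entries were. The 6 osteoblast markers summed to 369 to 627 FPKM in mutants and 961 to 1362 FPKM in controls, with 1 of 6 log2 changes above 0 and Bglap at 0 in mutant 1. Array weights gave 2 osteoblast markers called lower, where 1.32% of all tested entries were. Of the 6 fat cell markers 5 were tested and 0 had a log2 change above 0, with Adipoq, Cidec and Plin1 at 0 in mutant 1. Their sum was 20.7 to 76.3 FPKM in mutants and 112 to 147 FPKM in controls. With array weights 3 fat cell markers were called lower, where 1.32% of all tested entries were. Without mutant 1 there was 1 called, where 0.0446% of all tested entries were. The sums of the 6 endothelial markers overlapped, at 183 to 228 FPKM in mutants and 189 to 206 FPKM in controls. Of these 6, 4 had a log2 change above 0. Without mutant 1 all 6 had, where 47% of all tested entries had. Mutants 2 and 3 lay above every control in 3 and below in 0, where 36.3% of all tested entries had either order. The sums of the 7 macrophage markers found overlapped as well, at 207 to 255 FPKM in mutants and 211 to 229 FPKM in controls. Of these 7, 2 had a log2 change above 0, and 1 without mutant 1. Mutants 2 and 3 lay below every control in 5 and above in 1, where 36.3% of all tested entries had either order. Array weights gave 1 macrophage marker called higher, where 0.719% of all tested entries were. Limma called 0 genes of each marker list given here with all 6 libraries. The skeletal muscle sum was 2084 to 2709 FPKM in mutants and 3111 to 4331 FPKM in controls, with 2 of 5 log2 changes above 0. The red cell sum was 1679 to 1851 FPKM in mutants and 2016 to 2406 FPKM in controls, with 0 of 4 above 0. Slc4a1 of the red cell list was at 0 in mutant 1. The part of these cell types in the levels of Jun, Ier2 and Egr2 was not tested.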

How the data were processed

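RNA-seq libraries of 3 mutant and 3 control embryos were analysed from 1 table of 43496 gene entries. Its values are FPKM as the authors made them; the unit was inferred from the values and from Cufflinks, which the submitters' processing notes name without a version, with build mm9. No source used here gives the aligner, the annotation or the filters. The deposited fold is a signed score (minus control over treatment where below 1), and the deposited p-value comes from a test not given here. The code 999999999 was treated as missing, which left out 15 entries. An exact 0 can be a failed estimate and is given as listed.

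Entries averaging 1 FPKM or more across the libraries entered a two-sided test of genotype (limma 3.58.1, R 4.3.3) on log2(FPKM + 1), a scale that understates the change of low genes. The eBayes step used a trend and robust estimates, and p-values were adjusted over 15710 entries. Depth came from the steps of values below 0.1 FPKM in control 1, with genes within 2% counted at a step. The neural marker list is not reported here. The members and lists were chosen with earlier results of these data known. The naming rule took all members, the 4 genes with the smallest p of each other list and those past the threshold, the 5 genes most like Fos and Memo1; not all are printed. Dusp6, Srf, Klf2, Egr3, Dnajb1 and the members summed by family were chosen after their values were seen. Replicates are separate embryos by their labels and numbered in accession order. Motifs were sought in RefSeq windows of GRCm38.p6 matched by symbol; of several windows of a gene, the one nearest the start of a principal GENCODE transcript was taken.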

Additional observations from a re-analysis of the deposited data

How the results depend on the processing

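The count of genes called was 0 with all 6 libraries and also with a pseudocount of 0.1, without a filter on the mean, at a mean of at least 5 FPKM and with median-ratio scaling. It was 320 with array weights, where mutant 1 weighed 0.0329 and the other 5 between 1.48 and 2.76. Leaving out 1 library gave 0 to 7 genes, the 7 without mutant 1. None of the 9 tested immediate-early genes was called under any setting. Of 115 recomputed values of the 10 genes, 109 kept their direction and their side of the threshold or moved by less than the spread. The direction turned for Junb with array weights (log2 change 0.0051), without mutant 1 (0.012) and without control 3 (0.0497). It turned for Klf4 with array weights (log2 change 0.0143) and without mutant 1 (0.0279). The cause was not tested. The log2 difference of Fosb, which was not tested, was -0.21 at a pseudocount of 1 and -0.89 at 0.1; at 0.1 the log2 change was -2.18 for Fos, -1.85 for Egr2 and -1.87 for Atf3, against -1.11, -0.75 and -0.84 at 1, all with mutant 1 at 0. No value of Fosb was had with array weights, the title word or a mean of at least 5 FPKM, and none of Atf3 and Egr2 at the last.

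Leaving out 1 library at a time moved the log2 change of Fos between -1.68 and -0.18, of Atf3 between -1.25 and -0.13, of Egr2 between -0.96 and -0.44, of Fosb between -0.37 and -0.04, of Junb between -0.17 and 0.05 and of Klf4 between -0.33 and 0.03. It lay between 0.19 and 0.39 for Jun, 0.15 and 0.42 for Ier2, 0.14 and 0.37 for Egr1 and 0.08 and 0.28 for Dusp1. For Fos, Atf3 and Egr2 the value nearest 0 was that without mutant 1, where they are listed at 0.

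With the title word as a replicate block, in which mutant 2 drops out of the contrast, 0 genes were called, and the log2 change was 0.26 for Jun, 0.20 for Ier2 and -0.91 for Egr2. The r of deviations from the group means was -0.03 to 0.00 between mutants and controls that share the word. It was -0.07 to 0.05 between those that do not. Deviations from means of 3 libraries depend on each other, so these values cannot tell whether the word pairs samples. The table holds no counts, so the number of fragments behind the low values of Fosb and Egr2 is unknown.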
